A study of Mus musculus with 4 samples.

Results

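Krt7, Krt8, Krt18 and Krt19, the keratins of simple epithelia, were followed together with Epcam and Esrp1 through 4 stages of mouse mammary development. These 6 genes were taken by symbol, out of 30406 genes listed in all 4 libraries. Single cells of WT C57B6 females (C57 B6/N in the study's methods) were profiled with 10x 3' chemistry on embryonic days E13.5, E14.5 and E15.5 and at birth (P0), with 1 library per stage and the tissue of several animals pooled in each embryonic library. The cells had been sorted on EpCAM protein into positive and negative fractions, with blood and endothelial cells gated out by CD45, CD31 and Ter119. P0 glands were dissociated with another enzyme mix and a red cell lysis step, so stage, library and dissociation cannot be told apart. All 6 genes were found under the same Ensembl identifier in every library. Where values are given in stage order, E13.5 comes first, then E14.5, then E15.5, then P0.

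Keratins are the intermediate filament proteins of epithelial cells and work as obligate pairs of a type II and a type I chain. Krt8 (type II) with Krt18 (type I) is the pair of simple epithelia, while Krt7 (type II) and Krt19 (type I) mark ductal and luminal cells in many glands, and in the adult mammary gland all 4 are typical of luminal cells as opposed to the Krt5 and Krt14 of basal cells. Epcam encodes a cell surface adhesion protein of epithelia, and Esrp1 an RNA-binding protein that sets epithelial splicing patterns.

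In the GENCODE annotation of GRCm38 (mm10, the build of the files), Krt7, Krt8 and Krt18 lie on chromosome 15. Krt7 spans bases 101411043 to 101430313 on the plus strand, Krt8 101996698 to 102004482 on the minus strand and Krt18 102028180 to 102032027 on the plus strand. Krt8 and Krt18, members of different keratin types, are thus neighbours 23697 bases apart. Krt19 lies on chromosome 11 (100140810 to 100148665, minus strand), Epcam on chromosome 17 (87635979 to 87651129, plus strand) and Esrp1 on chromosome 4 (11331933 to 11386783, minus strand). Promoter windows from RefSeq, 250 bases before to 50 bases after the start that RefSeq annotates, matched 4 of the 6 genes (Krt7, Krt8, Krt18 and Epcam). The 3 keratin windows are shown because these 3 keratin genes of chromosome 15 are compared throughout, with motif matches on either strand in capitals.
Krt7 promoter (GRCm38.p6, chr15:101412153-101412452, plus strand): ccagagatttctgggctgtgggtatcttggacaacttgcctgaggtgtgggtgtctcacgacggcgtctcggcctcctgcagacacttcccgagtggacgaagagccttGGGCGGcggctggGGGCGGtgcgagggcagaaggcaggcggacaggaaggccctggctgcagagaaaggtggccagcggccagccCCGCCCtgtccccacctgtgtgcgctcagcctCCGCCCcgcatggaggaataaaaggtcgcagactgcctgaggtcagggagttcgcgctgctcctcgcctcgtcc
Krt8 promoter (GRCm38.p6, chr15:102004293-102004592, minus strand): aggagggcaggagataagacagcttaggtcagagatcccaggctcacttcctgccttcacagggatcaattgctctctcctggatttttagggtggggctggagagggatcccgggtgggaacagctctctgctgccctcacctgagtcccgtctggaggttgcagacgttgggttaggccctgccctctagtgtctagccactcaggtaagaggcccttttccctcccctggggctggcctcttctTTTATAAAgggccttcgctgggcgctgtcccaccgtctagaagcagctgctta
Krt18 promoter (GRCm38.p6, chr15:102027966-102028265, plus strand): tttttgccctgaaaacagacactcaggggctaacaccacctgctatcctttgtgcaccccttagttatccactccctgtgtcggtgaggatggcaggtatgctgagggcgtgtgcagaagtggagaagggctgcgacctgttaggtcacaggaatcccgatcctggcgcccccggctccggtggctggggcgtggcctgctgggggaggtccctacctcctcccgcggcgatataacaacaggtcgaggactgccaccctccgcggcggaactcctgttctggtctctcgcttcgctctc
Krt7 held 4 matches to the GC box GGGCGG, Epcam held 1, and Krt8 and Krt18 held none, against 35.7% of all 32851 promoters with a match. The TATA letters TATAAA had 2 matches in Krt8, which overlap on opposite strands and begin 3 bases and 1 base before the annotated start, and in none of the other windows, against 13.6% of promoters. TGANTCA (AP-1) and AACCNGTT (grainyhead), present in 7.81% and 2.09% of promoters, matched in none of the 4 windows.

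Cells with at least 5000 UMIs (unique molecular identifiers, each 1 counted RNA molecule) and at most 6% mitochondrial UMIs were kept. In stage order they numbered 235 of 981, 76 of 807, 816 of 2642 and 503 of 1466 barcodes. A cell was called epithelial where its summed Krt5, Krt14, Krt15 and Cdh1 UMIs exceeded those of Col1a1, Col1a2 and Col3a1, and mesenchymal where the reverse held, which in stage order gave 97, 45, 532 and 212 epithelial cells and 135, 31, 284 and 286 mesenchymal cells. Total depth of the kept cells was 4506046, 2111282, 21559040 and 5122125 UMIs, and the median epithelial cell held 19260, 26725, 24670.5 and 10038.5 UMIs. Levels are CPM, the UMIs of a gene among all UMIs of a group of cells scaled to 1000000. Summed levels of 8 epithelial markers were 2649 to 5838 CPM in epithelial and 27.4 to 249 CPM in mesenchymal groups, and those of 8 mesenchymal markers 84.9 to 263 and 6783 to 76472 CPM. These marker lists include all the genes that set the tissue, so part of both gaps was built in. Of 4 endothelial markers 1 had UMIs in the epithelial groups (Cdh5, Kdr and Tie1 were at 0), with summed levels of 1.48, 5.50, 1.97 and 1.64 CPM in stage order, against 12.04, 22.7, 14.7 and 33.4 CPM in mesenchymal groups, where 2 or 3 of the 4 had UMIs. The 5 blood and immune markers summed to 16.8 CPM or less everywhere but in P0 mesenchymal cells (6263 CPM), and 4 P0 cells held over 100 hemoglobin UMIs. At P0, 100 of 503 cells held UMIs of both tissues' markers with the smaller sum at 20% or more of the total, against 0 to 6 cells at the other stages. Of these P0 cells, 85 were among the 212 called epithelial and 10 among the 286 called mesenchymal. No kept barcode was shared between libraries. With 1 library per stage there is no test, and all intervals below are exact 95% intervals that cover counting error only. The limit given beside a count of 0 cells is 3 cells over the number examined, which is lower than the upper end of the exact interval.

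Krt8 and Krt18, the type II and type I chains of the simple epithelial pair, were lowest at E14.5 and highest at P0 in epithelial cells. Krt8 stood at 246, 170, 925 and 5231 CPM in stage order, with intervals of 225 to 268, 148 to 194, 909 to 941 and 5141 to 5323 that do not overlap. Krt18 stood at 390 (364 to 419), 133 (113 to 154), 619 (606 to 632) and 3854 (3777 to 3933) CPM. The order of stages was the same for both genes. P0 was 21.3-fold above E13.5 for Krt8 (19.5 to 23.3) and 9.87-fold for Krt18 (9.18 to 10.6). One E13.5 cell held 102 of the 498 Krt8 UMIs and one E14.5 cell 54 of 216, without which the levels were 198.8 and 133.9 CPM, and with the highest cell left out at each stage the Krt8 fold was 26.0.

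Krt7 and Krt19, the other type II and type I chains, were also highest at P0 but, over all epithelial cells, were low in between. Krt7 stood at 70.1 CPM at E13.5 (59.0 to 82.6, 142 UMIs) and had 0 UMIs among 45 cells at E14.5. In E15.5 epithelium it stood at 4.21 CPM (60 UMIs), and P0 epithelium reached 472 CPM (445 to 500). Against the floor of 3 UMIs over the group, E14.5 was 29.8-fold below E13.5, with an exact lower end of 23.9. Periderm genes, of the outer layer of embryonic skin, led in 48 of 97 epithelial cells at E13.5 and in 2 of 45 at E14.5, and mammary bud genes in 28 and 32. Where bud genes led, Krt7 had 2 UMIs at E13.5 (3.85 CPM) and 0 at E14.5. The part of this makeup in the stage difference was not tested. Of the 60 Krt7 UMIs at E15.5, 41 came from 1 cell, without which the level was 1.34 CPM and the P0 over E15.5 fold was 341 in place of 112. Krt19 stood at 78.5 (66.8 to 91.7), 16.5 (10.2 to 25.2), 46.0 (42.6 to 49.7) and 635 (604 to 668) CPM in stage order. The E15.5 value of Krt19 rested in part on a single cell with 183 of 655 UMIs, and was 33.2 without it. P0 was 6.73-fold above E13.5 for Krt7 (5.65 to 8.07) and 8.09-fold for Krt19 (6.87 to 9.59), over all epithelial cells. Cells where periderm genes led held 124 of the 142 Krt7 and 149 of the 159 Krt19 UMIs at E13.5. Where bud genes led, Krt19 stood at 9.63, 14.9 and 30.5 CPM from E13.5 to E15.5. The part of the makeup in the P0 folds was not tested.

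Epcam and Esrp1 had their highest and lowest stages at opposite ends. Epcam stood at 557 (525 to 591), 564 (523 to 607), 1719 (1697 to 1740) and 4089 CPM (4010 to 4171) in stage order, and the first 2 intervals overlap. Esrp1 stood at 185 (166 to 204), 109 (91.8 to 129), 132 (127 to 139) and 59.9 CPM (50.6 to 70.5). Over all epithelial cells, E13.5 was thus the highest and P0 the lowest stage for Esrp1, with P0 at 0.325 of E13.5 (0.266 to 0.394). P0 Epcam was 7.34-fold above E13.5 (6.90 to 7.81). At E13.5, Esrp1 stood at 264 CPM where periderm genes led and at 102 where bud genes led. Where bud genes led, it stood at 102, 109 and 118 CPM from E13.5 to E15.5. The part of this makeup in the P0 ratio of Esrp1 was not tested.

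Counted at a 2-fold limit among genes with at least 20 UMIs over both groups, 0 of 6 members were higher at E14.5 than at E13.5 (background 12% of all genes) and 3 were lower, namely Krt7, Krt18 and Krt19 (background 5.09%). Where bud genes led, the E14.5 over E13.5 ratio was 0.317 for Krt18 (0.255 to 0.393) but 1.55 for Krt19 (0.519 to 5.55), and Krt7 had 0 against 2 UMIs. From E14.5 to E15.5, 4 were higher (background 7.98%) and 0 lower (background 19.4%), with Esrp1 at 1.21-fold. Krt7 had 60 against 0 UMIs there, but without the cell with 41 of them its E15.5 level of 1.34 CPM lay under the 2.36 CPM that 3 UMIs make at E14.5, so no fold is given. From E15.5 to P0, 5 were higher (background 14.8%) and Esrp1 alone was lower (background 18.5%). The count for P0 against E13.5, over all epithelial cells, was again 5 higher (background 17.2%) and 1 lower (background 20.6%). Comparisons that share a stage share its cells.

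**Figure D1:**
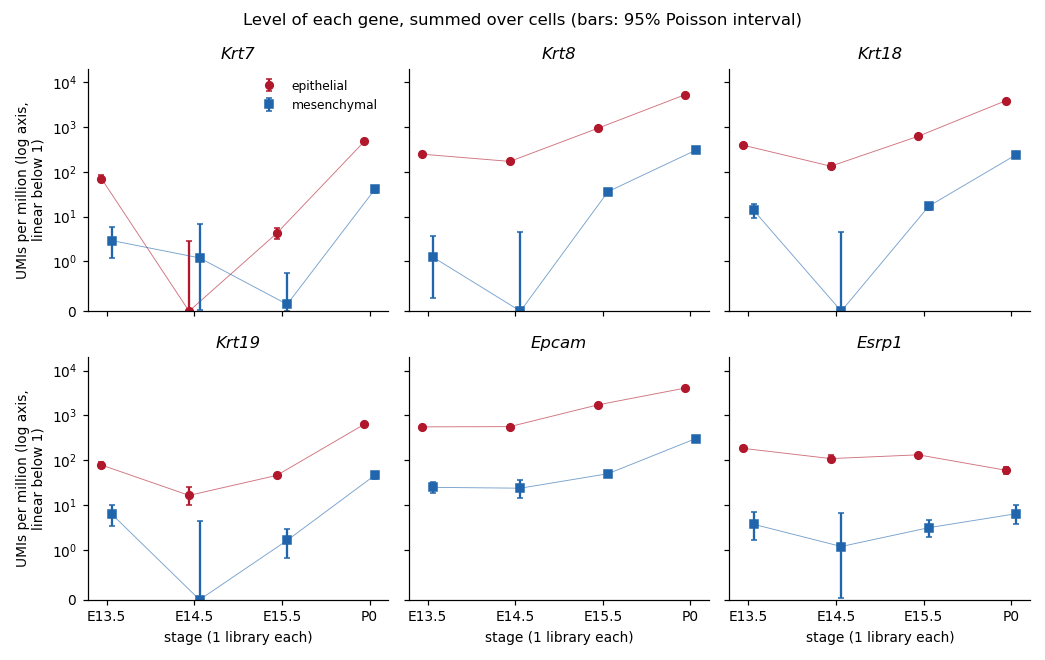
Levels of the 6 genes in epithelial (red circles) and mesenchymal (blue squares) cells by stage, as CPM on a log axis that is linear below 1, with 95% Poisson intervals. The 4 keratins and Epcam are highest at P0 in epithelial cells, Krt7 has 0 UMIs in E14.5 epithelial cells, and Esrp1 goes from 185 to 59.9.

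All members with enough UMIs were higher in epithelial than in mesenchymal cells. The 2-fold limit was passed by 6 of 6 members at E13.5 (background 10.3% of genes), 5 of 5 at E14.5 (background 14.6%), 6 of 6 at E15.5 (background 16.7%) and 6 of 6 at P0 (background 23.1%). Krt7 was left out at E14.5, with 0 epithelial and 1 mesenchymal UMI. For Epcam this comparison is not independent of the sort, which used its protein.
Krt8 was 197-fold higher in epithelial cells at E13.5 (67.1 to 960, from 3 mesenchymal UMIs). At E14.5 mesenchymal cells held 0 Krt8 UMIs, and against the floor of 3 UMIs the fold was 47.4, with an exact lower end of 38.2. The fold was 25.8 (22.8 to 29.2) at E15.5 and 17.4 (16.2 to 18.7) at P0. Krt18 was 28.5-fold, 37.1-fold (against the floor, exact lower end 29.8), 36.2-fold and 15.9-fold higher in the same order. The mesenchymal level of Krt8 was 1.25 CPM at E13.5 and 301 at P0, so the P0 fold was the smallest of the 4 for Krt8 despite the highest epithelial level.
Krt7 was 24.1-fold higher at E13.5, 30.9-fold at E15.5 (5.33 to 1239, from 1 mesenchymal UMI) and 11.7-fold at P0. Krt19 was 12.6-fold, 4.61-fold (against the floor, exact lower end 3.43), 28.1-fold and 13.7-fold higher from E13.5 to P0. Epcam ranged from 13.4-fold at P0 to 34.2-fold at E15.5. Esrp1 was 49.4-fold, 91.5-fold (16.2 to 3639, from 1 mesenchymal UMI), 42.2-fold and 9.29-fold higher.

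At P0 the mesenchymal values moved with a small set of cells. By another marker rule, chosen after seeing the data (Cdh1, Cldn7, Perp and Dsp against Pdgfra, Lum, Twist1 and Prrx1), 18 of the 286 P0 mesenchymal cells counted as epithelial, and these 18 held 663 of the 794 mesenchymal Krt8 UMIs. At E15.5, 5 such cells held 200 of 263. With tissue set by that rule the P0 folds were 96.3 for Krt8, 66.0 for Krt18, 126 for Krt7, 57.1 for Krt19, 132 for Epcam and 23.8 for Esrp1, and the E15.5 folds were 104 for Krt8, 112 for Krt18, 75.8 for Epcam and 93.4 for Esrp1. The P0 epithelial level of Krt8 by that rule was 5148 CPM. Other rules moved the folds both ways while the members stayed over 2-fold higher in epithelial cells. With mixed cells left out, Krt8 was 104.6-fold higher at E15.5 and 31.1-fold at P0, and Krt18 113-fold and 28.6-fold. With only Cdh1 and Cdh3 as epithelial markers, the E14.5 folds of Epcam and Esrp1 were 3.802 and 3.474, the E15.5 folds 14.6 and 14.9 and the P0 folds 6.13 and 4.91, and Krt8 was 15.53-fold higher at E15.5 and 8.80-fold at P0. The size of an epithelial over mesenchymal fold thus depended on the rule that set the tissue.

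In single epithelial cells the genes differed in how widely they were detected. To compare stages of unequal depth, each cell was thinned at random to 5000 UMIs. Krt8 then had a UMI in 41.2% (31.3 to 51.7), 37.8% (23.8 to 53.5), 79.5% (75.8 to 82.9) and 99.1% (96.6 to 99.9) of cells in stage order, against 56.7%, 64.4%, 86.7% and 99.5% at full depth. Thinned mesenchymal cells had Krt8 in 0 of 135 at E13.5, which allows a share of up to 2.22%, in 0 of 31 at E14.5, which allows up to 9.68%, in 4.58% at E15.5 and in 25.5% at P0. Krt18 was in 59.8%, 28.9%, 74.4% and 98.1% of thinned epithelial cells, against 5.19%, 0 of 31, 5.63% and 29.0% of mesenchymal cells. Mesenchymal cells, which should lack these genes, set the background against which an epithelial share is read, and this was highest at P0, at a median full depth of 8769 UMIs against 10038.5 in epithelial cells.
Krt7 was in 21.6% of thinned epithelial cells at E13.5, in 0 of 45 at E14.5, which allows up to 6.67%, in 0.752% at E15.5 and in 58.0% at P0. The mesenchymal shares of Krt7 were 1.48%, 3.23%, 0 of 284 (which allows up to 1.06%) and 6.29%, so the intervals of epithelial and mesenchymal shares were apart at E13.5 and P0 and overlapped at E14.5 and E15.5. Krt19 was in 25.8%, 4.44%, 9.21% and 64.6%, with mesenchymal shares of 2.96%, 0 of 31, 2.11% and 9.79%. Krt7 and Krt19 thus had no UMI in 42.0% and 35.4% of thinned P0 epithelial cells. Epcam was in 85.6%, 91.1%, 98.9% and 100%. Esrp1 was in 55.7%, 37.8%, 45.9% and 26.4%, and at full depth in 89.7%, 95.6%, 91.9% and 44.3%.

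The spread between cells was described by the variance over mean in thinned cells, which nears the Poisson value of 1 as a gene's mean falls. For Esrp1, with a thinned mean of 0.335 UMIs at P0, it was 1.22, 0.806, 1.01 and 1.21 in stage order. The same ratio was 4.35, 2.06, 5.51 and 10.1 for Krt8, 5.23, 2.21, 3.32 and 8.27 for Krt18, and 1.96, 2.14, 2.51 and 4.59 for Epcam. After thinning, the tenth of P0 cells with most UMIs of a gene held 52.1% of them for Esrp1. This share was 22.8% for Krt8, 24.6% for Krt18 and 20.5% for Epcam. It rises as a gene's mean falls, and Esrp1 had the lowest P0 mean of the 6 genes. The share alone thus does not set Esrp1 apart as uneven. Esrp1 was missing from 73.6% of thinned P0 cells, close to the 71.5% for Poisson counts of the same mean. At E13.5, 58.8% of thinned cells lacked Krt8, against 27.0% for Poisson counts of the same mean. At P0, 42.0% lacked Krt7 and 35.4% lacked Krt19, against Poisson shares of 8.94% and 4.40%. In full-depth cells, Krt8 had a lowest value of 0 at each stage, medians of 71.0, 68.0, 725 and 5084 CPM in stage order and highest values of 3026, 973, 6511 and 17930 CPM. Epcam at P0 ran from 711 through 3878 to 13822 CPM, so no P0 epithelial cell was without it.

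**Figure D2:**
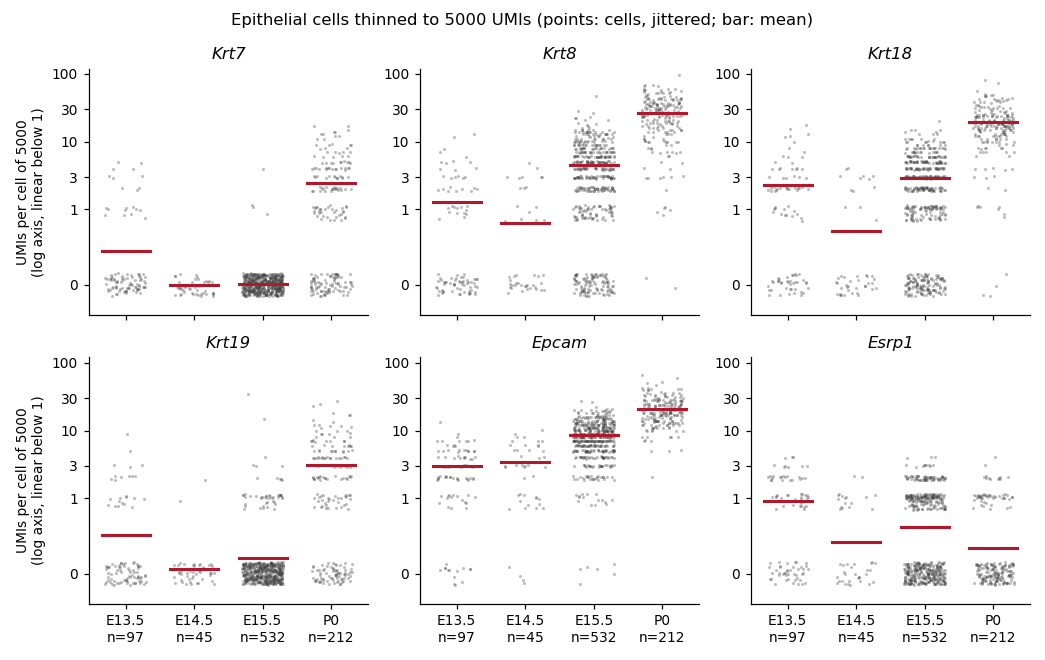
UMIs of each gene in single epithelial cells thinned to 5000 UMIs (log axis, linear below 1), with 1 jittered point per cell and a red bar at the mean, for 97, 45, 532 and 212 cells in stage order. Krt7 and Krt19 at P0 keep a band of cells at 0 (42.0% and 35.4%), whereas Epcam has none there.

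Krt8 and Krt18 were detected together in 33.0% (23.8 to 43.3), 11.1% (3.71 to 24.1), 66.5% (62.4 to 70.5) and 97.2% (93.9 to 99.0) of thinned epithelial cells in stage order. The product of the single shares was 24.7%, 10.9%, 59.2% and 97.2%. Co-detection was above that product at E15.5 beyond its interval, and within the interval at the other stages. Full-depth shares were 52.6%, 55.6%, 83.1% and 99.1%. In thinned mesenchymal cells the pair was in 0 of 135, 0 of 31, 4 of 284 (1.41%) and 26 of 286 (9.09%) cells. Across cells, which share a library and a depth, the correlation of log2(thinned UMIs + 1) between Krt8 and Krt18 was 0.468 (n = 97), 0.149 (n = 45), 0.539 (n = 532) and 0.724 (n = 212).
Krt7 and Krt19 were found together in 12.4% of thinned cells at E13.5 (6.56 to 20.6) against a product of 5.58%, and in 46.7% at P0 (39.8 to 53.7) against 37.5%. At E15.5 the pair was in 1 of 532 thinned cells. All P0 cells with Krt7 and Krt19 after thinning also had Krt8 and Krt18, so that the 4 keratins together were in the same 99 of 212 cells (46.7%), against 6 of 97 (6.19%) at E13.5, 0 of 45 at E14.5 and 1 of 532 (0.188%) at E15.5.
All 6 genes together were in 27 of 212 thinned cells at P0 (12.7%) and 4 of 97 at E13.5 (4.12%), with 59 (27.8%) and 22 (22.7%) at full depth. Esrp1 was the member most often missing at P0. Its pairings with the keratins lay close to the product there, for example 25.9% for Krt8 with Esrp1 against 26.2%.

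**Figure D3:**
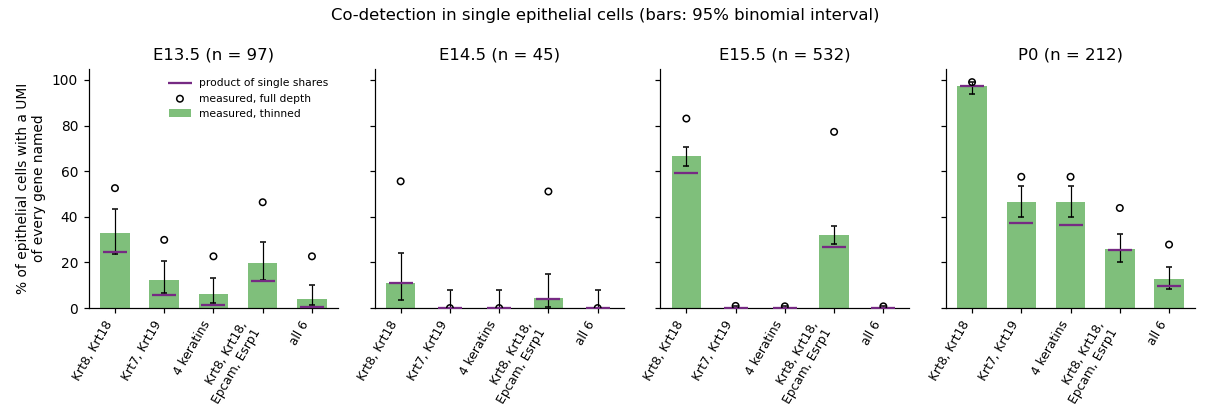
Share of epithelial cells with a UMI of every gene named, by stage. Green columns with 95% binomial intervals are cells thinned to 5000 UMIs, purple marks the product of the single thinned shares and open circles the full depth, and the Krt8 and Krt18 pair goes from 11.1% at E14.5 to 97.2% at P0.

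The balance between keratins, within the Krt8 and Krt18 pair and between chains of the same type, differed between stages. Such a ratio is read between groups only, since capture differs between genes. Krt18 UMIs per Krt8 UMI were 1.59 (1.42 to 1.78), 0.782 (0.636 to 0.961), 0.669 (0.651 to 0.687) and 0.737 (0.717 to 0.757) in stage order. Krt19 per Krt18 was 0.201 (0.168 to 0.239), 0.124, 0.0744 and 0.165 (0.156 to 0.174) in the same order. Krt7 per Krt8 was 0.285 at E13.5, 0.00456 at E15.5 and 0.0902 at P0. Over all epithelial cells E13.5 thus had the highest value of these ratios, although its Krt19 per Krt18 interval overlaps that of P0. Where bud genes led, E13.5 was not the highest for Krt19 per Krt18, at 0.0200 (0.00644 to 0.0473), 0.0977 (0.0507 to 0.173) and 0.0576 (0.0450 to 0.0727) from E13.5 to E15.5. Krt7 per Krt8 was 0.00893 in those E13.5 cells (0.00107 to 0.0326, from 2 Krt7 UMIs), under the 0.0902 of all P0 epithelial cells.

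Within E13.5 the members split by marker list. Epithelial cells were sorted by which list had most of its 5 genes detected after thinning, which gives a range of cells rather than a type: the mammary bud list (Tbx3, Msx1, Sostdc1, Ndnf, Pthlh) led in 28 cells and the periderm list (Gabrp, Krt4, Krt6a, Grhl3, Hopx), for the transient outer layer of embryonic skin, in 48. Krt7 stood at 137 CPM where periderm genes led and 3.85 where bud genes led (2 UMIs), a 35.6-fold difference (9.64 to 297). Krt19 stood at 165 against 9.63, 17.1-fold (7.16 to 53.4), and Esrp1 at 264 against 102, 2.59-fold (1.91 to 3.55). Krt8 stood at 241 against 432, a ratio of 0.558 (0.461 to 0.676), but 1 cell held 102 of the 224 Krt8 UMIs where bud genes led, and without the highest cell on each side the levels were 196 and 251.4 CPM. The intervals of the ratio spanned 1 for Krt18 (0.943 to 1.29) and Epcam (0.784 to 1.03). Krt18 per Krt8 was 2.20 (1.87 to 2.60) where periderm genes led and 1.12 (0.928 to 1.34) where bud genes led. The bud value includes the cell with 102 Krt8 UMIs, which lowers it, and the ratio was not recomputed without that cell. Requiring 2 genes of the leading list, a limit chosen after seeing the data, left 33 and 20 cells, with Krt7 at 176 against 2.96 and Krt19 at 231 against 11.9.
Followed over the embryonic stages in cells where bud genes led (28, 32 and 91 cells), Krt8 stood at 432, 215 and 718 CPM (251.4, 165 and 678 without the highest cell), Krt18 at 482, 153 and 530, Krt19 at 9.63, 14.9 and 30.5, Epcam at 665, 638 and 1607, and Esrp1 at 102, 109 and 118. For Esrp1 in these cells E14.5 over E13.5 was 1.07 (0.756 to 1.53), against 0.591 (0.483 to 0.720) in all epithelial cells. The bud list itself summed to 1378, 992 and 525 CPM in cells where it led, from E13.5 to E15.5. At E15.5 the study found Pthlh, Sostdc1 and Msx1 enriched in its basal-like cells. The cells where bud genes led were thus not shown to be the same population at each stage.

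At E15.5 the study's own lists of basal-biased genes (Cxcl14, Pthlh, Ndnf, Lmo1, Wnt10b) and luminal-biased genes (Anxa1, Ly6d, Plet1, Lgals3, Grhl3), chosen on these samples and so no independent evidence of direction, led in 216 and 212 epithelial cells. These lists share Pthlh and Ndnf with the bud list and Grhl3 with the periderm list. Krt8 was 1087 CPM where luminal-biased genes led and 786 where basal-biased genes led, 1.38-fold (1.33 to 1.44). Krt18 was 1.11-fold higher (1.06 to 1.16), Esrp1 1.27-fold (1.15 to 1.41), and Epcam 0.991-fold (0.964 to 1.02). With the groups set on every UMI the Krt18 ratio was 1.02 (0.975 to 1.07) and that of Epcam 0.940 (0.914 to 0.967), and with groups set on summed UMIs they were 1.25 (1.20 to 1.31) and 1.07 (1.04 to 1.09). Krt19 was 68.9 against 30.5 CPM, yet the luminal-biased value was 39.3 without the cell with 183 UMIs, and Krt7 was 8.82 against 0.372, with 41 of the 54 UMIs in 1 cell. Detection of Krt19 at full depth was lower where luminal-biased genes led, at 23.1% against 35.6% of cells. No cells were removed by epidermal markers here. A suprabasal epidermis list (Krt1, Krt10, Krt77, Sbsn, Dmkn) led in 142 E15.5 epithelial cells, the bud list in 91 and the periderm list in 54. The remaining cells were tied or had none. These counts depended on the rule. With at least 2 genes to lead they were 78, 68 and 14. With groups set on every UMI, the bud list led in 152 cells and the periderm list in 23. In the 142 cells where suprabasal genes led, Krt8 stood at 918 CPM, Krt18 at 596, Krt7 at 1.81, Krt19 at 25.1, Epcam at 1567 and Esrp1 at 136. Periderm genes led in 54 E15.5 cells, where Krt19 stood at 201 CPM and at 68.1 without its highest cell. Its periderm over bud ratio there was 6.59 (5.09 to 8.63), and 3.30 to 24.7 under other ways to set the groups.

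At P0 the keratins differed strongly by marker list. The basal list (Acta2, Myh11, Mylk, Cnn1, Tagln), of smooth muscle genes, led in 14 epithelial cells, the luminal progenitor list (Aldh1a3, Kit, Elf5, Csn3, Wfdc18) in 150 and the hormone-sensing list (Prlr, Cited1, Esr1, Pgr, Areg) in 34. Krt8 stood at 934 CPM where basal genes led (781 to 1108), 5583 where luminal progenitor genes led and 5778 where hormone-sensing genes led. Krt18 stood at 691, 4139 and 4168 in the same order, and the hormone-sensing over luminal progenitor ratio spanned 1 for both genes (0.994 to 1.08 and 0.960 to 1.06). Krt7 stood at 21.4, 541 and 444, and its hormone-sensing over luminal progenitor ratio was 0.822 (0.710 to 0.948).
Krt19 was the keratin whose level differed most between the luminal lists, at 14.3 CPM where basal genes led (2 UMIs), 445 where luminal progenitor genes led and 1411 where hormone-sensing genes led, with hormone-sensing over luminal progenitor at 3.17 (2.86 to 3.52). Thinned cells had Krt19 in 7.14%, 65.3% and 94.1%. Epcam had another order, at 2352, 4616 and 3273, with hormone-sensing over luminal progenitor at 0.709 (0.673 to 0.747). Esrp1 stood at 35.6, 57.9 and 61.2 with overlapping intervals. Krt18 per Krt8 was 0.740, 0.741 and 0.721, with overlapping intervals, while luminal progenitor over basal was 5.98-fold for Krt8 (5.03 to 7.16) and 5.99-fold for Krt18 (4.90 to 7.39).

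**Figure D4:**
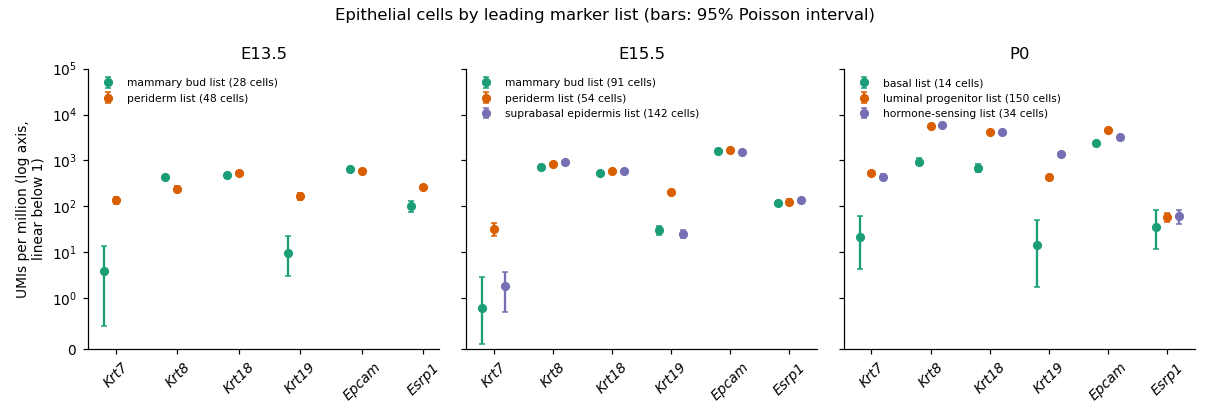
Level of each gene in epithelial cells grouped by the marker list with most genes detected, at E13.5, E15.5 and P0, as CPM on a log axis that is linear below 1, with 95% Poisson intervals. Krt7 and Krt19 part the periderm from the bud list at E13.5 (137 against 3.85 and 165 against 9.63), and Krt19 parts the hormone-sensing from the luminal progenitor list at P0 (1411 against 445).

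Other genes of epithelial identity were more epithelial at every stage but differed in their course over time. Of 26 such genes (cadherins, claudins, grainyhead-like and Ovol factors, serine protease regulators and others), all with enough UMIs were at least 2-fold higher in epithelial cells: 24 of 24 at E13.5, 18 of 18 at E14.5, 25 of 25 at E15.5 and 22 of 22 at P0, against backgrounds of 10.3%, 14.6%, 16.7% and 23.1% of all genes. Cdh1 is in this list and also in the rule that set the tissue, so its epithelial excess was built in. From E13.5 to P0 in epithelial cells, 8 of 25 genes of the list were 2-fold higher (background 17.2%) and 6 lower (background 20.6%), and their median log2 ratio was -0.14, against -0.17 over all genes tested. At E13.5 the largest epithelial folds were those of the claudin Cldn3 (216), Cldn7 (208) and Ovol1 (187). The largest P0 over E13.5 ratios were those of Ehf, an Ets factor of epithelia (0.494 to 134 CPM, from 1 UMI at E13.5, 271-fold with an interval of 48.3 to 10736), Cldn7, a tight junction claudin (173 to 911), and St14, a membrane serine protease (24.7 to 122). The 3 furthest down were Grhl3, a grainyhead-like factor of the epidermal barrier, at 312 and 1.23 CPM, and the zinc finger factors Ovol1 at 311 and 40.2 and Ovol2 at 17.3 and 3.28 CPM. Grhl3 is also in the periderm list, which led in 48 of 97 E13.5 epithelial cells, and P0 cells were not grouped by that list. The part of this makeup in the falls was not tested. Of 10 mesenchymal counterparts none was 2-fold higher in epithelial cells at any stage, and 9 of 10, 8 of 9, 8 of 10 and 9 of 10 were 2-fold lower (backgrounds 21.8%, 17.5%, 22.6% and 18.8%). Snai2, a zinc finger repressor of epithelial genes, was the exception at every stage, at 138 epithelial and 72.7 mesenchymal CPM at E13.5 and 11.1 and 9.10 CPM at P0, and Fn1 (fibronectin) joined it at E15.5 at 155 and 310 CPM, a ratio of 0.502.

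Among genes with at least 100 UMIs, the pattern over the 8 stage and tissue groups most like that of Krt18, by the Pearson correlation of log2(CPM + 10), was that of Phlda1 (0.985), followed by Krt8 (0.980) and Epcam (0.970). Epcam was nearest to Fam98c (0.996), Cldn7 (0.994) and Fam129b (0.991), and Esrp1 was near to Ppp1r13l (0.993) and Ripk4 (0.989). Krt8 was nearest to Pdcd6ip (0.991), Usp25 (0.987) and Slc30a4 (0.983), Krt19 to Gm15867 (0.989) and Mal2 (0.978), and Krt7 to Zfp703 (0.965), Gars (0.959) and Sfxn5 (0.953). Such a correlation does not compare the size of changes. For example, Sfxn5 lay between 2.39 and 6.98 CPM in all groups, whereas Krt7 ran from 0 to 472 CPM. Correlations over 8 groups that share libraries are a description, and with log2(CPM + 1) in its place 2 of the 3 genes nearest to Esrp1 stayed among the nearest 3, 1 each for Epcam, Krt8 and Krt19, and 0 for Krt7 and Krt18. With Spearman's correlation 1 of 3 stayed for Krt19 and 0 for the other 5 members.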

How the data were processed

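Counts were deposited by the authors as gene-by-barcode UMI tables from Cell Ranger with the mm10 build. The submitters' notes give version 6.0.0 for all libraries, whereas the file header of E15.5 gives 3.1.0 and those of the other stages 6.0.0. In comparisons with E15.5, version and stage thus cannot be told apart. No annotation of cells and no normalized values were used. Levels are UMIs summed over cells scaled to 1000000 (CPM). Intervals are exact 95% Poisson (levels), binomial (shares) or conditional binomial (ratios) intervals, and a group at 0 was set to 3 UMIs. Cells were thinned without replacement to 5000 UMIs. No doublet caller was run. The sort gated out cell doublets, droplets with more than 1 cell were not called, and mixed cells were left out as an alternative. The 2-fold limit was tried on Poisson counts simulated at the E15.5 depth only, without spread between cells. There 99.5% of 200 genes changed 4-fold were recovered and 1.18% of unchanged genes were called. The other stages, of lower total depth, were not simulated. Named genes are the 6 members, list genes by count with the 3 largest and exceptions, and the 3 nearest patterns per member, of which some are not reported here. Members and lists were chosen with earlier results of these data known. Python 3.11.15, NumPy 2.4.6, SciPy 1.17.1 and pandas 2.3.3 were used.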

Additional observations from a re-analysis of the deposited data

Results flagged for a closer look

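Barcodes outside the cell filter, which no comparison used, also held the members. Summed over the 6 genes, they stood at 702 CPM in 746 barcodes at E13.5, 653 in 731 at E14.5, 1916 in 1826 at E15.5 and 7189 in 963 at P0. Krt8 alone stood at 152, 159, 418 and 2657 there, and Krt7 at 10.8, 0.682, 3.33 and 232. Krt7 was thus lower at E14.5 and E15.5 than at E13.5 and P0 in these barcodes. Its E14.5 value rested on 1 UMI and its interval there overlaps that of E15.5, so the order of E14.5 and E15.5 was not settled. The tissue of these barcodes was not assigned.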

How the results depend on the processing

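No paired analysis was possible because each stage has 1 library. No fold whose interval excluded 1 in the main setting changed direction under the alternatives run. Keeping only cells where bud genes led was not among these alternatives. In those cells E14.5 over E13.5 was 1.55 for Krt19 and 1.07 for Esrp1, with intervals that spanned 1. Over all epithelial cells these ratios were 0.210 and 0.591. Folds whose main interval spanned 1 could fall on either side, as for Epcam at E15.5. Its periderm over bud ratio was 0.901 (0.834 to 0.973) with groups set on every UMI and 1.25 (1.20 to 1.31) on summed UMIs. After thinning, the count of members 2-fold higher in epithelial cells fell to 3 at E14.5, since Krt19 and Esrp1 then held fewer than 20 UMIs. Krt7 also dropped out of the E15.5 count after thinning. It then had a mean of 0.0132 UMIs over 532 epithelial cells and 0 in mesenchymal cells, again fewer than 20 UMIs. Such smaller changes of a count were not called moved. P0 over E13.5 folds after thinning were 8.79 for Krt18, 6.06 for Krt19 and 5.32 for Krt7. Krt19 was 9.82 with Cdh1 and Cdh3 as the epithelial markers, Krt7 was 8.30 without mixed cells, and Krt8 was 26.0 without its highest cell. Krt8 and Krt18 together were in 33.0% (E13.5), 11.1% (E14.5) and 66.5% (E15.5) of thinned epithelial cells. At full depth the E15.5 share was 83.1%, and it was 78.0% with a mitochondrial maximum of 10%. Among the other values, 50 of 89 moved beyond their counting interval after thinning, 23 of 92 with Cdh1 and Cdh3, 15 of 92 with the mitochondrial maximum at 10%, 13 of 92 without mixed cells, 8 of 92 with marker sums of at least 10 UMIs and 2 of 92 with a UMI minimum of 3000. Of the marker group ratios, 15 of 36 moved with groups set on every UMI, 12 of 36 on summed UMIs and 3 of 36 with at least 2 genes to lead. The second thinning moved 0 of 12 shares beyond their intervals. Folds against a group at 0 UMIs use the floor of 3 UMIs and were not recomputed. The cause was not tested for the values that moved under other markers or limits. Small groups (45 epithelial and 31 mesenchymal cells at E14.5, 14 cells where basal genes led at P0) limit what could be detected.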
